A study of Solanum lycopersicum with 12 samples.

Results

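Leaves of tomato sprayed with the plant activator Alethea and then given plain water (AW) were compared directly with leaves sprayed with water and then given salt (WS), to describe which transcripts tell a primed leaf from a salted one. The comparison used 6 of the 12 arrays of the study, 3 AW and 3 WS, paired by replicate number, and the 3 arrays of plants given water at both steps (WW) are set beside them. All plants were of the cultivar Ailsa Craig and 4 weeks old, and RNA came from leaf 3, with the leaves of 3 plants pooled for each array. AW plants received a spray of diluted Alethea and then water in the pot. WS plants received a spray of distilled water and then 100 mM NaCl in the pot. WW plants received a spray of distilled water and then water in the pot. The 3 other arrays came from plants sprayed with Alethea and then given 100 mM NaCl (AS). They were used only where a fit of all 12 arrays or all 4 groups is named. Alethea combines potassium dihydrojasmonate, sodium benzoate, L-arginine and mineral nutrients. Leaves were taken 48 h after the spray and 24 h after watering, so that AW leaves had been exposed to their treatment for longer than WS leaves, and treatment and time cannot be told apart. Each group was sampled on 3 separate occasions, which carry the replicate numbers 1, 2 and 3. Of 10209 probe sets (groups of short oligonucleotides read together as 1 signal), 108 controls were set aside. Of the others, 7683 had a mean log2 value above 3.2 in AW or in WS and were kept. The kept probe set nearest to that limit had its higher group mean at 3.21, and the nearest one left out lay just under it. Of those kept, 6820 have no gene name here.

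The components of Alethea belong to pathways that are well described in plants. Jasmonates switch on wound genes such as protease inhibitors, benzoate can be converted to salicylic acid, which switches on pathogenesis-related (PR) genes, and arginine is a precursor of polyamines and proline. Salt in the root zone lowers water potential and brings sodium into the shoot. The hormone abscisic acid (ABA) then rises, ABA-responsive genes such as protein phosphatases 2C are transcribed, and proline is commonly accumulated through more synthesis and less breakdown. Ethylene is made under both kinds of stress, and its signal passes from membrane receptors through EIN3-like (EIL) factors to ERF transcription factors.

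No probe set passed the test. In limma with the occasion as a block, 0 of 7683 probe sets were higher and 0 were lower in AW than in WS at an adjusted p under 0.05 (0% in each direction), and the smallest adjusted p was 0.148. At an unadjusted p under 0.05 there were 766 higher (9.97%) and 802 lower (10.4%), 20.4% in all. The 3 AW values lay above all 3 WS values in 528 probe sets (6.87%) and below them in 478 (6.22%). The mean was higher in AW in 3786 of the 7683 probe sets. The difference had the same sign on all 3 occasions in 1774 probe sets that were higher in AW (23.1%) and 1829 that were lower (23.8%). Mean differences of at least 1 log2 unit, which is 2-fold, were found for 125 probe sets higher (1.63%) and 94 lower (1.22%). All 12 arrays, AS included, were also fitted together, so that the spread was estimated from all 4 groups. In that fit 20 probe sets were called higher (0.26%) and 21 lower (0.273%). It did not allow for likeness between arrays of 1 pre-treatment and occasion. With such arrays as a random block, 9 were called higher and 9 lower. As no probe set passed in the fit of 6 arrays, the values below are measured differences with their errors. A gene is said to have been called only where the fit of 12 arrays called it. Errors after ± are limma's moderated standard errors from the fit of 6 arrays, drawn towards a value common to all probe sets. For a gene with uneven occasions they can be smaller than its 3 pair differences alone would give.

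The genes described first are the 15 named probe sets in each direction with the largest mean difference among those with separate groups, the same sign on all 3 occasions and an unadjusted p under 0.05. There were 56 such named probe sets higher in AW and 51 lower, of 307 and 297 with or without a name. Of the 30 shown, 27 have a name only because the study listed them for Alethea or salt on these same arrays, so the names lean to genes already known to differ from untreated leaves. Adjusted p over all probe sets was between 0.148 and 0.198 for the 30 genes in the fit of 6 arrays, and the fit of 12 arrays called 8 of them. With arrays of 1 pre-treatment and occasion as a random block in that fit, 6 of the 8 stayed called, and the miraculin-like protein and the second tobacco-type protein phosphatase 2C did not (both at an adjusted p of 0.0508).

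The genes higher in AW than in WS came from several processes. Of the 15, 4 had a WS mean under 3.2, used here as the limit of detection, and were kept through AW alone (tXET-B2, the Avr9/Cf-9 elicited protein, LBM1 and the HVA22-like protein), so the sizes of their differences are uncertain. The largest difference was that of a miraculin-like protein, a relative of the Kunitz trypsin inhibitors. Its log2 values on occasions 1, 2 and 3 were 6.08, 8.02 and 8.22 in AW and 3.14, 4.05 and 4.47 in WS. The lowest AW leaf thus lay well above the highest WS leaf. The mean difference was 3.56 ± 0.23 log2 units (moderated SE, 3 pairs), or 11.8-fold. The fit of 12 arrays called the gene with an adjusted p of 0.0439 (0.0508 with the random block). In WW the values were 4.31, 6.24 and 3.99, between the 2 other groups on occasions 1 and 2.

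A probe set matching SIEP1L of sugar beet had the smallest adjusted p of the fit of 12 arrays, 0.00172. It read 9.22, 10.47 and 10.81 in AW and 7.22, 7.92 and 8.16 in WS, a difference of 2.40 ± 0.17 log2 units or 5.27-fold. On every occasion the WW leaf, at 8.22, 9.31 and 9.49, lay between the salted and the primed leaf. AW stood 1.16 log2 units above WW and WS 1.24 below it.

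Proline dehydrogenase (PDH), which carries out the first step of proline breakdown in mitochondria, set the leaves apart through a low value in salt. Its log2 values were 6.74, 7.76 and 6.92 in AW and 4.01, 4.09 and 4.89 in WS. The groups were separate by more than their spread on each occasion, with a difference of 2.81 ± 0.33 log2 units (7.02-fold, adjusted p = 0.029 in the fit of 12 arrays). The primed leaves were near the untreated ones, at 0.31 below WW on average, whereas the salted leaves were 3.12 below. PRO2, the enzyme of proline synthesis known as P5CS, differed by 0.01 ± 0.13 log2 units between AW and WS, and was 0.24 and 0.23 above WW in the AW and WS leaves.

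Cell wall and phosphate-related genes followed. RNALE, an extracellular ribonuclease that tomato makes when phosphate is short, was at 8.65, 10.49 and 10.01 in AW and 7.31, 8.39 and 7.87 in WS. The difference of 1.86 ± 0.20 (3.64-fold, adjusted p = 0.029 in the fit of 12 arrays) lay in the primed leaves, which stood 2.02 above WW when salted leaves stood 0.16 above it. A homologue of tobacco phi-1, a phosphate-induced gene, was 1.65 ± 0.27 log2 units higher in AW, and the groups did not overlap.

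**Figure D1:**
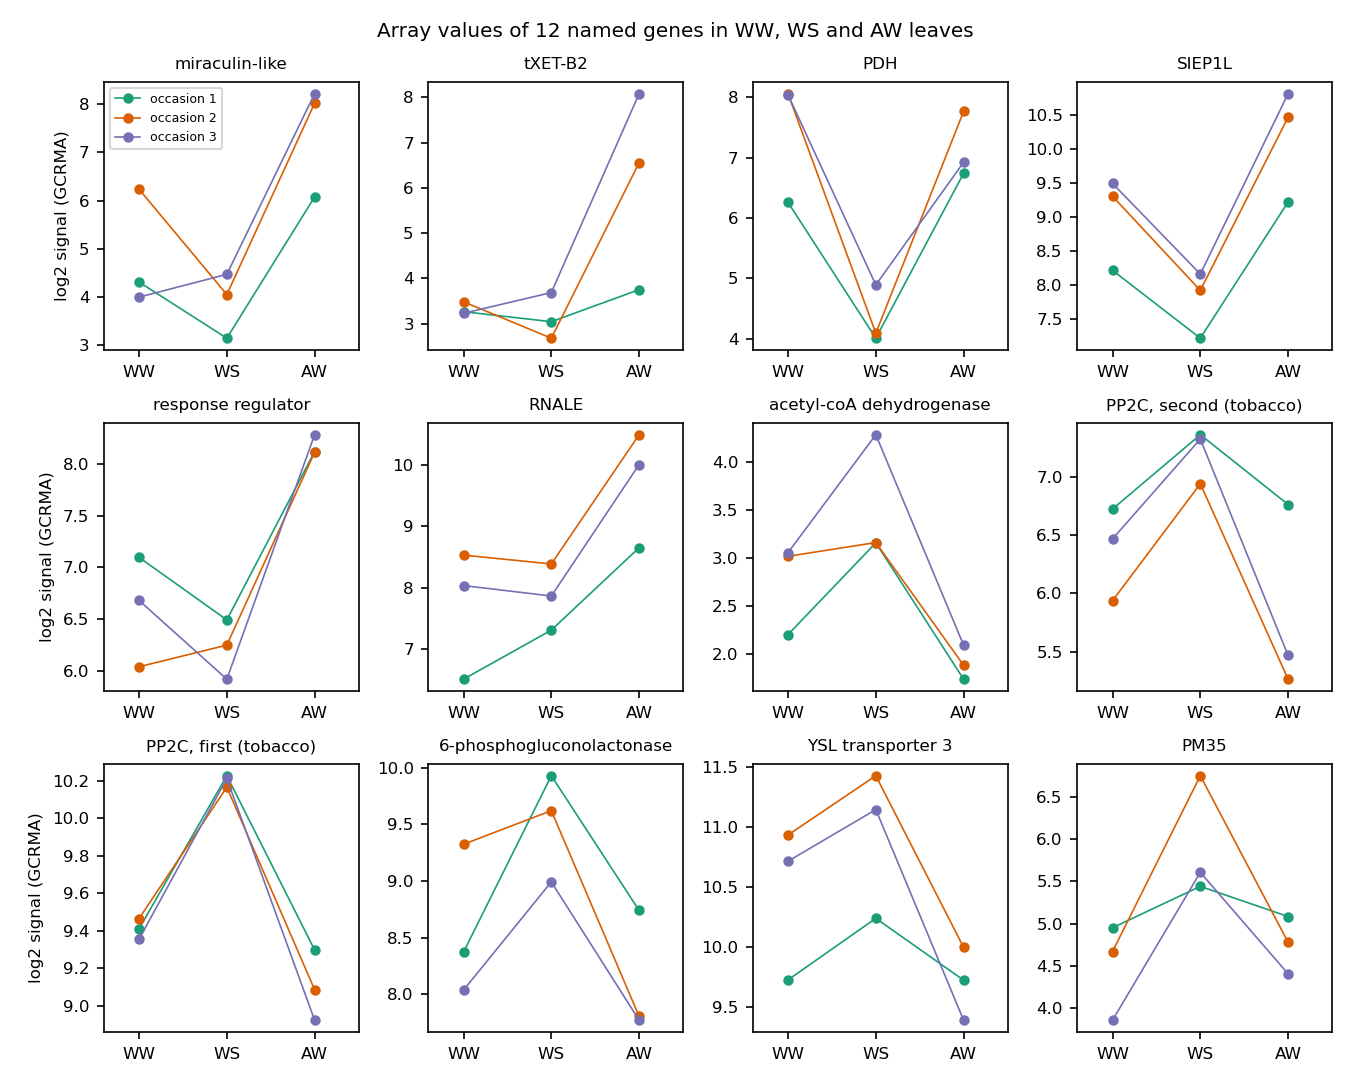
Log2 signal on each array for 12 named genes in WW, WS and AW leaves, with 1 line for each occasion. In the first 6 panels every AW point lies above every WS point, and in the last 6 every AW point lies below. PDH and PM35 have WS means 3.12 log2 units below and 1.44 above WW, with AW means nearer to it (-0.31 and 0.26).

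tXET-B2, a xyloglucan endotransglycosylase that cuts and rejoins hemicellulose chains, showed how unequal the occasions could be. It read 3.75, 6.56 and 8.08 in AW and 3.04, 2.68 and 3.69 in WS, under the limit of detection in 2 of the 3 salted leaves. The AW and WS leaves of occasion 1 were 0.71 apart, and those of occasions 2 and 3 were 3.88 and 4.40 apart, which gives a mean of 2.99 ± 0.75. A response regulator receiver protein, of a family that takes phosphate in histidine kinase signalling, was as even as tXET-B2 was uneven. It was at 8.12, 8.11 and 8.28 in AW and 6.49, 6.25 and 5.92 in WS, a difference of 1.95 ± 0.18, and the fit of 12 arrays called it with an adjusted p of 0.0257.

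The remaining genes higher in AW had mixed annotations. A homologue of tobacco Avr9/Cf-9 rapidly elicited protein, named for its transcription in a resistance response, was 2.61 ± 0.60 log2 units higher in AW, where WS was at 3.59, 2.35 and 3.18 and thus largely under the limit of detection. A homologue of the petunia zinc finger protein ZPT2-13 was 2.59 ± 0.59 higher, and the quinone-reducing enzyme NAD(P)H:quinone oxidoreductase 2.42 ± 0.70 higher. For these 3 genes occasion 1 gave the smallest difference, between 0.64 and 0.85 log2 units. PMZ, a zinc finger protein in Arabidopsis, class IV chitinase, which cuts the chitin of fungal walls, the beta subunit of ATP citrate lyase, which makes cytosolic acetyl-CoA, the myb-related factor LBM1 and an HVA22-like protein were between 1.49 and 1.93 higher. HVA22 takes its name from an ABA-induced gene of barley, and this homologue was under the limit of detection in every salted leaf (2.67 to 3.09) and on average in WW (2.86). LBM1 was under it in every salted leaf too, at 2.03 to 2.25.

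The 15 genes chosen as lower in AW had smaller differences than the 15 chosen as higher and included protein phosphatases 2C, of which some members hold back ABA signalling and are themselves transcribed when ABA rises. The study names 4 probe sets as such, 2 by homologues in tobacco and 2, which share 1 transcript cluster, by a homologue in Arabidopsis. The first of tobacco type read 9.30, 9.09 and 8.92 in AW and 10.23, 10.17 and 10.21 in WS. With the 3 salted leaves within 0.1 of one another, the difference was -1.10 ± 0.13 log2 units (2.14-fold, adjusted p = 0.0118 in the fit of 12 arrays). The second of tobacco type read 6.76, 5.26 and 5.47 in AW against 7.36, 6.94 and 7.32 in WS, a difference of -1.38 ± 0.28. The fit of 12 arrays called it with an adjusted p of 0.0445 (0.0508 with the random block). For all 4 probe sets the AW values lay below every WS value (background 6.22%), and AW was lower by at least 1 log2 unit (background 1.22%). These 4 were chosen by the study on the same arrays, so their direction is no independent evidence.

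The largest difference downwards among the 15 belonged to a putative acetyl-coA dehydrogenase, with 1.73, 1.88 and 2.09 in AW and 3.16, 3.16 and 4.29 in WS. Its AW values lay under the limit of detection and 2 of its WS values did too, so that the difference of -1.64 ± 0.22 (called by the fit of 12 arrays, adjusted p = 0.0291) is between weak signals. Well expressed transcripts gave clearer cases. A homologue of 6-phosphogluconolactonase, an enzyme of the oxidative pentose phosphate pathway, read 8.74, 7.80 and 7.77 in AW and 9.93, 9.62 and 8.99 in WS. That difference was -1.41 ± 0.17 log2 units or 2.66-fold.

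Transport and amino acid genes were among the rest. A homologue of YSL transporter 3, which moves metal chelates of nicotianamine, was at 9.73, 10.00 and 9.39 in AW and 10.24, 11.43 and 11.15 in WS, a difference of -1.23 ± 0.26. Acetolactate synthase, which opens the synthesis of branched-chain amino acids, was 1.20 ± 0.19 log2 units lower in AW, mostly through AW leaves at 0.97 below WW. Arginine decarboxylase 1 (named by its homologue in Datura), which turns arginine towards putrescine, differed by -1.08 ± 0.26 without overlap of the groups. The spread among the polyamine genes is given below.

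UDP-Glc-4-epimerase, which interconverts the sugar nucleotides of glucose and galactose, was read by 2 probe sets that gave like values, -1.22 ± 0.23 and -1.05 ± 0.31. Occasion 1 gave the largest difference at both, -1.84 and -1.94, and without it the second was -0.61. Both were near WW in primed leaves and about 1.06 to 1.08 above it in salted leaves. The same held for PM35, a soybean seed maturation protein by its homologue, at 5.09, 4.78 and 4.41 in AW and 5.44, 6.75 and 5.61 in WS, with WS 1.44 above WW. The remaining members were a ubiquitin-protein ligase, Petunia Shaggy kinase 4, Pm27 and a nucleobase:cation symporter, between -1.25 and -1.06. Among the probe sets with no gene name that met the same rule, one read 3.27, 3.90 and 3.18 in AW and 7.64, 4.78 and 6.16 in WS, a difference of -2.74. Its WW leaves were at 1.83, 5.30 and 1.71, so the salted leaf lay above the untreated one on occasions 1 and 3 and below it on occasion 2.

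The largest mean difference of any kept probe set did not meet the rule. A cyclin-like F-box protein, named by a homologue in Medicago, read 3.29, 2.66 and 2.37 in AW and 2.75, 9.43 and 8.03 in WS. The primed leaf was 0.54 higher on occasion 1 and 6.77 and 5.67 lower on occasions 2 and 3, so that the mean of -3.97 ± 1.48 describes no single occasion. This gene was chosen after its values were seen.

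Set against untreated leaves, the 15 named genes higher in AW and the 15 lower were placed differently. AW and WS are here compared with the same WW arrays, so the positions share their reference and are described without a test. Of the 15 genes higher in AW, 13 lay farther from WW in the primed than in the salted leaves, with a median of 1.49 log2 units above WW in AW and 0.60 below WW in WS. Of the 15 lower in AW, 9 lay farther from WW in the salted leaves, with medians of -0.47 in AW and 0.79 in WS. AW and WS lay on opposite sides of WW in 12 of the 15 higher genes and 13 of the 15 lower ones. Over all 7683 probe sets AW lay farther from WW in 4184 and WS in 3499, and in 3639 the 2 groups lay on opposite sides. Where every AW value lay above every WS value, named or not, AW was farther in 291 and WS in 237. Where every AW value lay below, the counts were 236 and 242. Among the calls of the 12-array fit they were 9 and 11 for AW higher, and 5 and 16 for AW lower. The placing of the 15 genes higher in AW is thus not that of such probe sets in general. Since AW minus WS is largest where the 2 groups part, the choice of the 30 genes itself favours opposite sides.

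**Figure D2:**
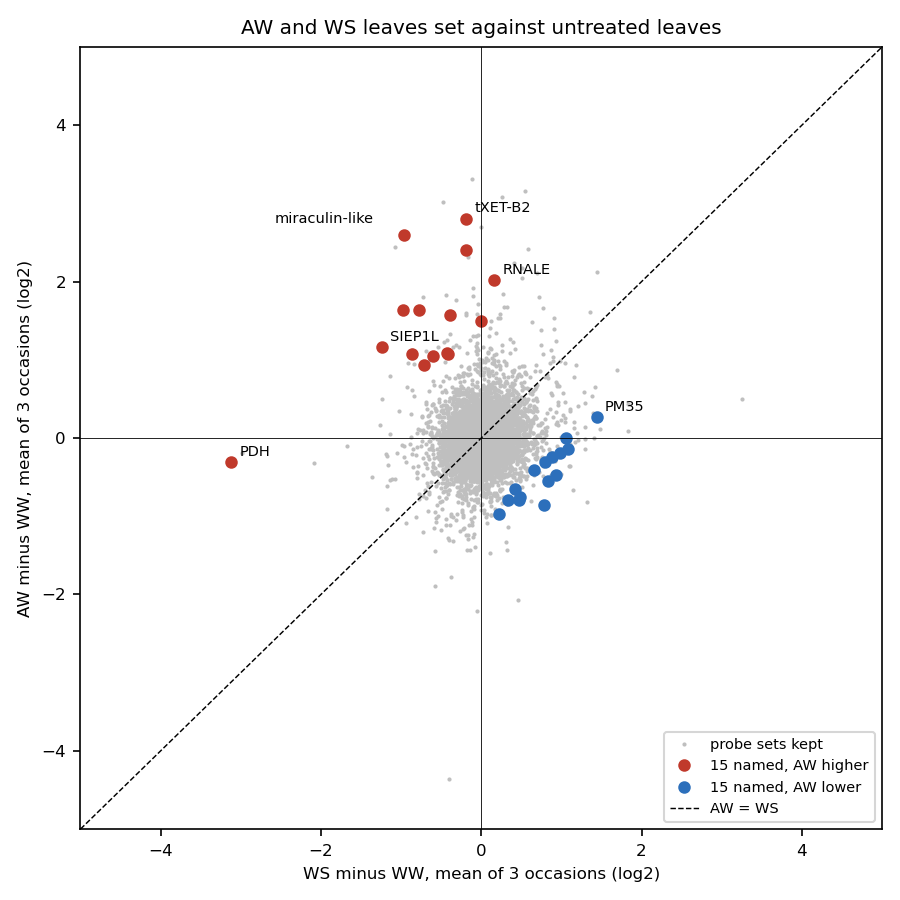
Mean difference from untreated leaves in WS (horizontal) and in AW (vertical), both in log2 units, for the 7683 probe sets kept (grey), the 15 named genes higher in AW (red) and the 15 lower (blue). Most red points lie high on the vertical axis, PDH lies far to the left because of its low value in salt, and the blue points lie to the right of and below the dashed line of equal values.

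Among gene groups ranked by the median of the mean differences, the xyloglucan endotransglycosylases of the cell wall came next after the organelle transcripts described below. The 2 probe sets of proline metabolism are left out of that ranking. Of 13 probe sets 12 were kept. On all 3 occasions 8 had the higher value in AW (background 23.1%) and 2 the lower (background 23.8%). With AW higher, 6 had an unadjusted p under 0.05 (background 9.97%). The list median was 0.72 log2 units, when that of all probe sets was -0.01. XTH16 counts 3 times in the list and among the 6. Within occasions 1, 2 and 3 the list median was 0.46, 0.30 and 0.45, and that of the AP2/ERF factors 0.34, 0.34 and 0.60. The ranking thus did not hold on every occasion. XTH3 was at 5.28, 8.06 and 8.5 in AW and 3.78, 6.26 and 7.28 in WS. Its pair differences of 1.5, 1.80 and 1.22 were close, though the levels of occasion 1 were lower in both groups, so the groups overlap. The 3 probe sets of XTH16 gave 0.88 to 0.98, here with primed leaves near WW (-0.23 to 0.01) and salted leaves 0.88 to 1.19 below it. LeXTH9 differed by 1.17 ± 0.35. XTH1, XTH5, XTH6, XTH7 and XET2 were within 0.16 of 0.

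Expansins, which loosen the wall without cutting it, had a higher mean in AW in 8 of the 10 probe sets kept (of 13). On every occasion 2 were higher (background 23.1%) and 2 lower (background 23.8%). The median was 0.13, EXP1 was 0.83 ± 0.26 log2 units higher in AW and EXPA4 0.62 ± 0.16 lower. The list median was -0.19 on occasion 1 and 0.63 on occasion 3. Pectin-modifying enzymes (9 of 15 kept) and endoglucanases (6 of 7) had medians of -0.06 and -0.17 with 0 members at an unadjusted p under 0.05 in either direction.

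Ethylene receptor and signalling genes had small differences, with lower means in AW. All 13 kept probe sets of receptors, CTR kinases, EIN2 and EIL factors (of 16) had a lower mean in AW. Of the 13, 8 were lower on every occasion (background 23.8%), and the median was -0.23. In 1 of the 13, EIL3, the groups did not overlap, a share near the background of 6.22%. EIL3 read 9.70, 9.74 and 9.61 in AW and 10.23, 10.30 and 10.48 in WS. That transcription factor differed by -0.65 ± 0.13 log2 units, or 1.57-fold. The receptor ETR3 differed by -0.49 ± 0.14 and EIL1 by -0.32 ± 0.11, and these 3 were the members with an unadjusted p under 0.05 (background 10.4%). ETR3 was above WW in both groups, by 0.37 in AW and 0.86 in WS.

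The AP2/ERF list was drawn to take in DREB and CBF factors besides ERF and PTI factors. It thus does not read ethylene signalling alone. Of its 11 probe sets kept (of 16), 10 had a higher mean in AW and 8 were higher on every occasion (background 23.1%). With AW higher, 6 had an unadjusted p under 0.05 (background 9.97%), none had separate groups, and the median was 0.44. PTI5, a factor that binds the GCC box of PR promoters, read 2.47, 6.89 and 6.30 in AW and 2.09, 3.57 and 4.03 in WS. On occasion 1 both leaves were under the limit of detection and 0.39 apart, and on occasions 2 and 3 the primed leaf was 3.32 and 2.27 higher. ERF-H1 was kept through AW alone, at 2.92, 4.81 and 3.86, and its WS values of 2.09, 3.02 and 2.67 were all under the limit of detection. Of 13 probe sets for ethylene synthesis 6 were kept, and all 6 means were higher in AW (median 0.23).

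Of the PR and salicylate genes 15 of 16 were kept, 9 had a higher mean in AW and 3 an unadjusted p under 0.05 with AW higher (background 9.97%), and the median was 0.06. The 3 were PR5, NP24-I and GluB, the first 2 of the thaumatin-like family that attacks fungal membranes and the third a glucanase of fungal walls. PR5 read 2.03, 7.0 and 7.92 in AW and 2.04, 2.17 and 2.18 in WS. It was at floor level in every salted leaf and in the primed leaf of occasion 1, and far above it in the primed leaves of occasions 2 and 3, so the mean of 3.52 ± 1.16 describes no single leaf. NP24-I was 2.54, 0.95 and 1.65 higher on the 3 occasions. PR1b1, P4, CHI3 and CHI9, abundant PR transcripts, differed by less than 0.1, and NPR1, the salicylate receptor, by -0.54. Outside that list, and so not in its counts, a PR-10 homologue went the other way, at -1.05 ± 0.13 log2 units without overlap. It was called by the fit of 12 arrays (adjusted p = 0.0439, 0.0498 with the random block). Another probe set of the same transcript cluster, with no name, differed by -0.84 ± 0.15 without overlap. That one was called too (adjusted p = 0.0439, 0.0508 with the random block).

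Wound and jasmonate genes differed little in median. Of 10 probe sets 6 were kept, with a median of -0.13. In that list LAPA1, a leucine aminopeptidase, was the one with a higher mean in AW (0.82 ± 0.39). Its 1 member at an unadjusted p under 0.05 was cathDInh (AW lower by 0.85 ± 0.31, background 10.4%). The list medians against WW were alike, 0.45 in AW and 0.43 in WS. Among 5 protease inhibitors of the study's lists, chosen on these arrays, all 5 means were lower in AW and the median was -0.33. Metallocarboxypeptidase inhibitor differed by -1.57, 0.14 and -1.02 on the 3 occasions. The 7 jasmonate synthesis probe sets kept lay between -0.29 and 0.08. Outside these lists, and so not in their counts, polyphenol oxidase F, which browns wounded tissue, was 1.40 ± 0.42 higher in AW (unadjusted limma p of 0.0225).

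**Figure D3:**
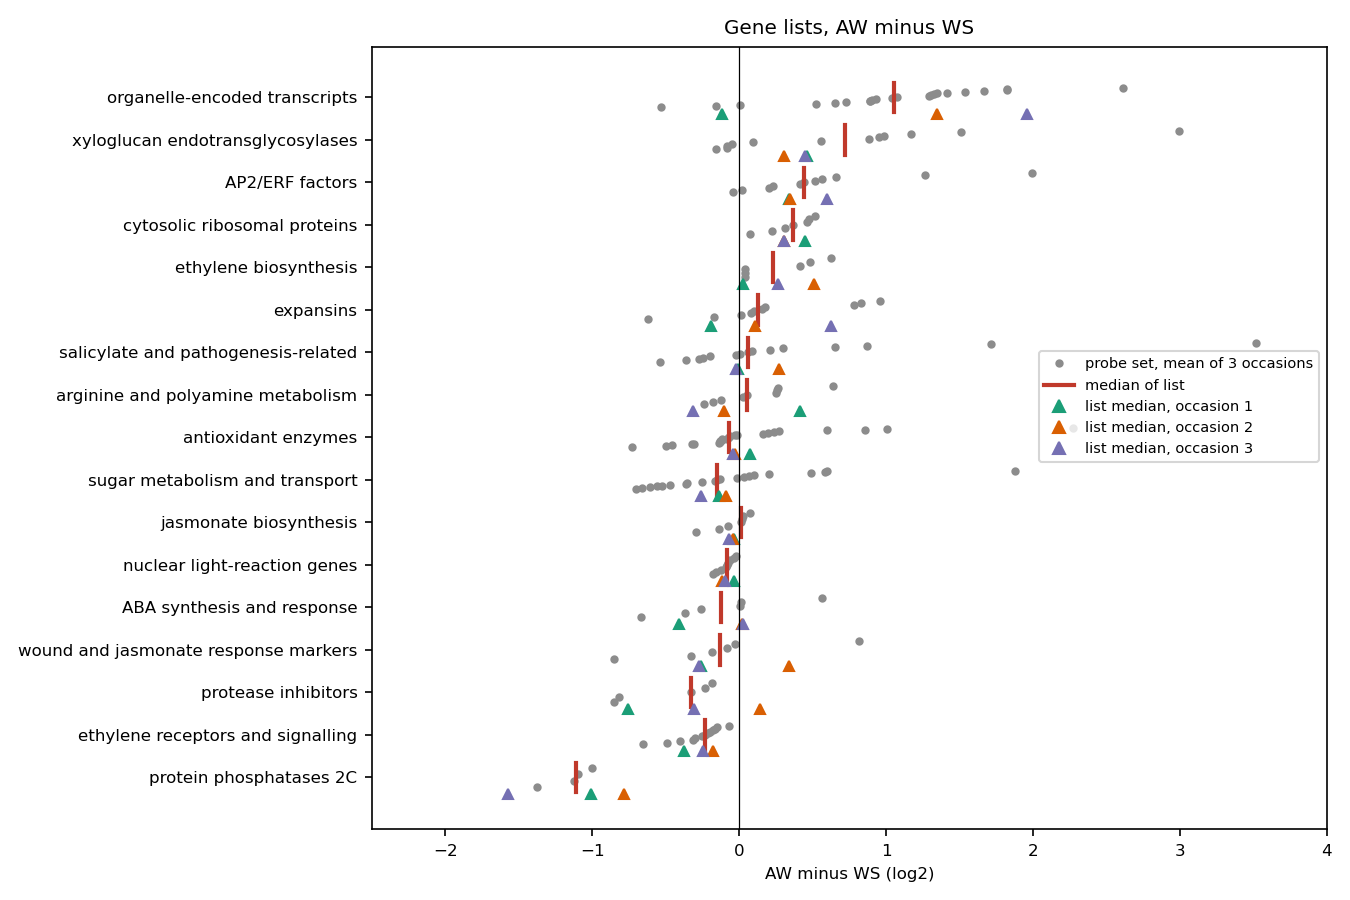
AW minus WS in log2 units for the probe sets of 17 gene lists (grey points, mean of 3 occasions), with the list median (red bar) and the list median on each occasion (triangles). Protein phosphatases 2C and ethylene receptors and signalling lie left of 0 on all occasions, ribosomal proteins, AP2/ERF factors and xyloglucan endotransglycosylases lie right of it, and the organelle-encoded transcripts divide by occasion.

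Polyamine genes were not uniform. None of the 9 arginine and polyamine probe sets kept (of 11) had an unadjusted p under 0.05, and the list median was 0.41 on occasion 1 and -0.31 on occasion 3. The arginase ARG2, which splits arginine, was above WW in both groups, by 1.38 in AW and 0.74 in WS at one probe set and by 1.13 and 0.87 at the other. Outside that list, as was arginine decarboxylase 1, S-adenosylmethionine decarboxylase, which supplies the propylamine groups of spermidine and spermine, was at 7.17, 9.07 and 8.51 in AW and 8.38, 10.37 and 10.27 in WS. It was lower in the primed leaf on each occasion, with a difference of -1.43 ± 0.16 log2 units, although the groups overlap, and WS was 1.29 above WW. Glutamate decarboxylase, which makes the stress metabolite GABA, differed by -0.64 ± 0.13.

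Genes of ABA synthesis gave modest differences. NCED1, the dioxygenase that limits ABA synthesis, differed by -0.67 ± 0.24 (-0.39 without occasion 1) and zeaxanthin epoxidase (ZEP) by -0.37 ± 0.12, both with salted leaves above WW (0.70 and 0.26). LEA14, a late embryogenesis abundant protein, was 0.56 ± 0.17 higher in AW, and the list of 6 kept had a median of -0.12. That list leaves out the 4 protein phosphatases 2C described above, which had a median of -1.11. It also leaves out the HVA22-like protein, which was 1.49 higher in AW from weak signals. The NAC factor JA2 read 4.72, 7.13 and 5.24 in AW and 6.00, 8.01 and 8.30 in WS. That transcript was lower in the primed leaf on every occasion, with a difference of -1.74 ± 0.45, and was 1.83 above WW in salt and 0.08 above it after Alethea.

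In sugar metabolism, 21 of 26 probe sets were kept, with 2 higher (background 9.97%) and 7 lower (background 10.4%) at an unadjusted p under 0.05. The mean was higher in AW in 8 of the 21, and the median was -0.15, with -0.13, -0.09 and -0.26 on the 3 occasions. The wall invertase Wiv-1, which splits sucrose in the apoplast, was at 6.84, 10.38 and 10.39 in AW and 5.86, 7.60 and 8.53 in WS, a difference of 1.88 ± 0.36. Sucrose phosphate synthase (SPS), which builds sucrose, went the other way by -0.56 ± 0.11 without overlap of the groups, and the beta-amylase BMY3 by -0.70 ± 0.19 at one of its 3 probe sets.

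Of 26 antioxidant probe sets 24 were kept, 4 were higher (background 9.97%) and 2 lower (background 10.4%) at an unadjusted p under 0.05, shares near the background, and the median was -0.07. The glutathione transferase ctu1 had the largest difference, with 7.29, 8.97 and 9.46 in AW and 4.78, 6.28 and 7.84 in WS. It was higher in the primed leaf on each occasion, by 2.27 ± 0.24 log2 units or 4.83-fold, with overlapping groups because occasions differed in level. Among the superoxide dismutases, the plastid and cytosolic copper-zinc enzymes SODCP.2 and SODCC.1 were 1.01 ± 0.28 and 0.60 ± 0.19 higher, and the iron enzyme FESOD was 0.50 ± 0.15 lower.

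Cytosolic ribosomal proteins had separate groups at most of their probe sets. In 6 of 7 probe sets every AW value lay above every WS value (background 6.87%), with mean differences of 0.07 to 0.52 log2 units over the 7 and a median of 0.37. The list median was 0.45, 0.30 and 0.31 on the 3 occasions. It was 0.21 above WW in AW and 0.15 below it in WS, so the differences were small and lay on both sides of the untreated level. The nuclear genes of the light reactions differed little in level, between -0.18 and -0.02 log2 units in 9 of 9 probe sets, at signals near the top of the scale. Other lists were flat, with medians of -0.03 for WRKY factors, -0.05 for carotenoid synthesis, 0.10 for the cell cycle and -0.01 for ion pumps, channels and aquaporins. Single members of them stood out, such as the ammonium transporter AMT1-2 (0.75 ± 0.14), SlWRKY37 (-0.92 ± 0.12) and, among 4 MYB factors kept, THM6 (0.88 ± 0.18) and, the other way, fsm1 (-1.04 ± 0.39).

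Further transcripts were called by the fit of 12 arrays, of which 16 of 41 have a name. The omega-6 desaturase cevi19, which adds double bonds to membrane lipids, was 0.86 ± 0.17 log2 units higher in AW, with salted leaves 0.64 below WW (adjusted p = 0.0445, 0.0609 with the random block). An auxin-regulated protein was 1.59 ± 0.13 higher and a lipid transfer protein 1.17 ± 0.14 higher, the latter with an adjusted p of 0.0508 with the random block. A heat shock cognate chaperone of the HSP90 family differed by -0.86 ± 0.12 without overlap. The small heat shock protein HSP17.4 was 1.19 ± 0.19 higher in AW without overlap, from low signals of 3.97 to 4.34 in AW and 2.39 to 3.57 in WS, and was not called.

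The size of the difference between a primed and a salted leaf depended on the occasion. The standard deviation of AW minus WS over the 7683 probe sets was 0.45 log2 units on occasion 1, 0.64 on occasion 2 and 0.53 on occasion 3. Differences of at least 1 log2 unit upwards numbered 137, 331 and 230 and downwards 150, 285 and 180. Described over all kept probe sets, whose values are not independent of each other, the differences of occasions 2 and 3 had a Pearson r of 0.55, those of 1 and 2 of 0.24 and those of 1 and 3 of 0.32. In 22 of the 30 named genes occasion 1 had the smallest difference, 13 of them higher in AW and 9 lower. PDH, SIEP1L and the miraculin-like protein were at least 2.00 log2 units apart on every occasion, occasion 1 included.

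Organelle-encoded transcripts followed the occasions most closely. The mean of 22 probe sets that the study annotates to chloroplast or mitochondrial genes was 9.46, 10.43 and 11.12 in AW and 9.67, 9.18 and 9.01 in WS. Primed leaves were thus lower by 0.21 on occasion 1 and higher by 1.25 and 2.11 on occasions 2 and 3. In 4 of the 22 every AW value lay above every WS value (background 6.87%), 20 had a higher mean in AW and the list median was 1.06. Median differences from WW were 1.47 in AW and 0.38 in WS, and these probe sets too were listed by the study from the same arrays.

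**Figure D4:**
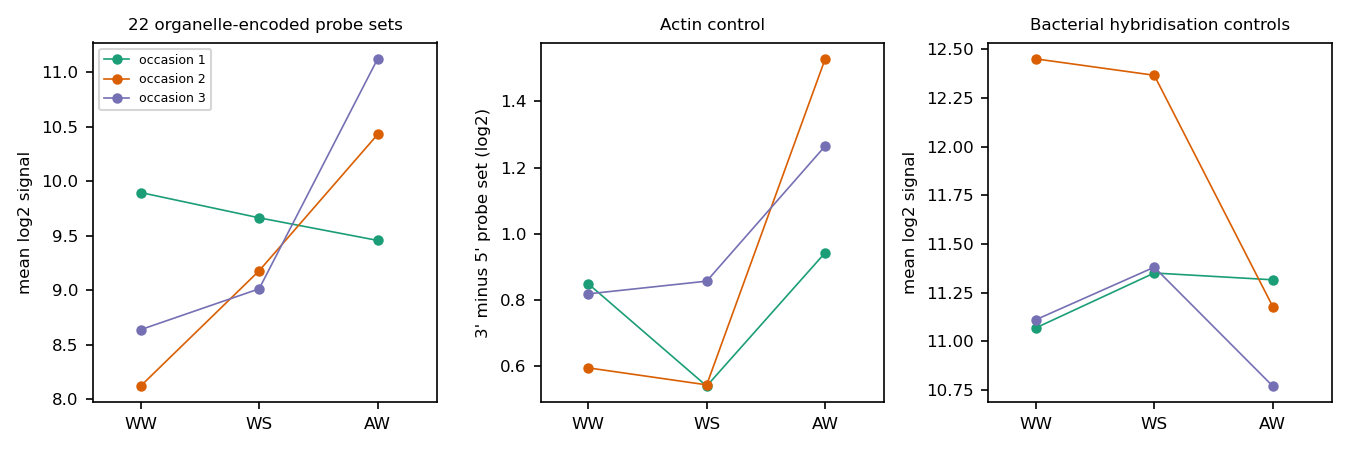
Mean log2 signal of 22 organelle-encoded probe sets (left), the 3′ minus 5′ signal of the actin control in log2 units (middle) and the mean log2 signal of the bacterial hybridisation controls (right) on each WW, WS and AW array, with 1 line for each occasion. The actin value is higher in AW than in WS on all 3 occasions, and the organelle mean on occasions 2 and 3.

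Control transcripts also differed between the groups. The 3′ minus 5′ signal of actin, which grows as RNA is degraded or labelled over a shorter length, was 0.94, 1.53 and 1.27 in AW and 0.54, 0.54 and 0.86 in WS. It was higher in every AW array than in every WS array, by 0.60 log2 units on average, and the GAPDH value was higher by 0.12 (0.09 to 0.16 over the pairs). The bacterial hybridisation controls were lower in AW by 0.03, 1.19 and 0.61 on the 3 occasions. WS of occasion 2 was at 12.37 and the 5 other AW and WS arrays at 10.77 to 11.38. Among the WW arrays occasion 2 was high too, at 12.45, against 11.07 and 11.11 on occasions 1 and 3. The part of these values in the gene differences was not tested. Leaf markers were high in both groups. The 8 leaf marker probe sets averaged 14.91 in AW and 15.00 in WS, and of 6 fruit ripening and 5 flower and pollen markers 1 each was kept. These are bulk leaf samples, in which more cells of a type and more RNA per cell cannot be told apart.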

How the data were processed

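Transcripts of 12 leaf samples had been measured on the Affymetrix Tomato Genome Array, and per the labels the authors normalised the signals with GCRMA and deposited log2 values. The version of GCRMA is not given in the sources used here. All columns were matched to samples, array medians lay between 7.67 and 7.77, and no arrays were identical. Probe sets with a mean above 3.2 in AW or WS were tested on the 6 AW and WS arrays with lmFit and eBayes of limma 3.58.1 (R 4.3.3) in a design of group and occasion. P-values were adjusted by the Benjamini-Hochberg method. With 2 residual and 2.78 prior degrees of freedom, precision is limited by the number of arrays. Pairing rests on the 3 replicate experiments of the study. Deviations from the group means correlated at r of 0.81, 0.57 and 0.69 within occasions and between -0.74 and 0.54 across them, the highest for AW of occasion 2 with WS of occasion 3. Names came from the array annotation (909 probe sets with 1 symbol), with RefSeq synonyms, and from the study's additional files. Named genes were the 15 per direction with the largest mean difference among those called. As none was called, they were filled as described in the report. Members of the gene lists were chosen with earlier results of these data known, and genes described beyond the rule were chosen after their values were seen. Log2 values are the authors' and differences, errors and tests were computed from them, and the test was tried on simulated data. Alternatives are given in the closing section.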

Additional observations from a re-analysis of the deposited data

How the results depend on the processing

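The count of 0 probe sets in each direction held under every alternative except those that estimate the spread differently. With all 12 arrays, 20 were higher and 21 lower, and with arrays of 1 pre-treatment and occasion as a random block 9 and 9, all 18 among the former 41. With a trended, robust prior, 2 were higher and 0 lower, namely SIEP1L and the miraculin-like protein. Without the replicate block there were 0 and 0, with 479 at an unadjusted p under 0.05 where the paired fit had 1568. Leaving out 1 occasion gave 0 to 0 in both directions, with 767 to 1577 at an unadjusted p under 0.05, the lowest without occasion 3 and 979 without occasion 2. The other alternatives tried also called 0 and 0: no filter, a filter at 5, a filter over all 4 groups, values under 3.2 set to 3.2, equal medians and quantile normalisation. Of 81 probe sets examined singly, 26 moved by over 1.5 times when 1 occasion was left out, 0 of them among those called with 12 arrays, and 3 changed direction. PRO2 then lay between -0.0694 and 0.109 (-0.00265 with equal medians), the arginase ARG1 between -0.0351 and 0.559, and the second probe set of ARG2 between -0.52 and 0.84. The cause was not tested. The 30 named genes could not turn, as they were chosen for 1 sign on all occasions. With 3 pairs, 2 residual degrees of freedom limit what the test can call.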
